A study of Mus musculus with 2 samples.

Results

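Collagen chain genes were taken as the protein-coding mouse genes whose symbol is Col, a number, a and a number, which gave 44 of 21883 protein-coding genes in the RefSeq table. They were divided by the structure their chains form into 11 fibrillar genes, 6 basement membrane genes (type IV) and 27 others. The peaks studied are those of 2 deposited lists whose centre lay in the gene span or within 50 kb of it. They numbered 75 of 14483 in the CD137 list and 60 of 8002 in the PDGFRα list.

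ATAC-seq marks open chromatin by the sites at which a transposase can insert sequencing adapters. Both groups were adipose progenitors of C57BL/6 mice, purified with magnetic beads as CD137+ or as PDGFRα+ cells from SAT or VAT, then given an adipogenic cocktail and dexamethasone, a synthetic glucocorticoid, at 1 µM. CD137 is used as a marker of beige fat progenitors, and PDGFRα is a receptor found on stromal progenitors. Each group had 1 library, no group without dexamethasone was analysed here, and the labels do not tie either population to a depot. Their text on extraction describes embryonic cells, which does not match the labelled tissue. Each list holds only peaks that the authors call unique, giving positions, Ensembl IDs and place classes but neither heights nor read numbers. Depth is therefore unknown, and where no peak is listed the chromatin could be open in both populations or closed in both. A single library per population allows no replicate check and no p-value, and all intervals are 95% intervals that cover counting error only. Peaks and genes are not replicates of a condition.

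Collagens are triple helices of 3 chains with glycine at regular steps along each chain. Fibrillar chains of types I, II, III, V, XI, XXIV and XXVII build or line the banded fibres that give connective tissue its strength. Type IV chains form the sheet of basement membranes, which surrounds each fat cell and each capillary. Type VI chains form beaded filaments at the cell surface, and fibril-associated chains (FACITs, such as types IX, XII and XIV) coat fibres. Stromal progenitors are a main source of collagen in fat, and glucocorticoids are known to lower collagen synthesis in many connective tissues.

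Member promoters touched by a unique peak are shown first, because they place list-specific open chromatin at a known transcription start. The letters are the 250 bases before the start in the RefSeq promoter table, build GRCm38.p6 (mm10), 5′ to 3′ on the gene's own strand. Capitals mark matches to any of 8 motifs searched on both strands. The PDGFRα list covers the start of Col3a1 (chr1:45311288-45311537, plus strand), and the CD137 list those of Col6a3 (chr1:90843972-90844221, minus strand) and Col19a1 (chr1:24587438-24587687, minus strand).
Col3a1: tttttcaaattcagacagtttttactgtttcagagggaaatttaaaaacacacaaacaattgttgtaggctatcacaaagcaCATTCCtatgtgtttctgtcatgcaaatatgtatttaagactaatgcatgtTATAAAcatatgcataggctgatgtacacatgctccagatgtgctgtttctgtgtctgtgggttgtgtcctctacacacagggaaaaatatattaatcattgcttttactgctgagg
Col6a3: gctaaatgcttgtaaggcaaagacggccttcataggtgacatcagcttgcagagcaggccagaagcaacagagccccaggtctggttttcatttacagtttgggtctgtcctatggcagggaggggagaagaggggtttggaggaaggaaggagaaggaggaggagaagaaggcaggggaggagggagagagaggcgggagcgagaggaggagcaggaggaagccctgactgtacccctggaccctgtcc
Col19a1: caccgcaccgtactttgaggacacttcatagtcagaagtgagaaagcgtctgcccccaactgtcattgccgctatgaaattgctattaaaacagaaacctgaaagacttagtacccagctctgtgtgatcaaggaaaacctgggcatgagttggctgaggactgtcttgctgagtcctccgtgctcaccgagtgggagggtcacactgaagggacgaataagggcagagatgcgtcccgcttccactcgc

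The Col3a1 letters hold TATAAA, the letters searched for as the TATA box, 117 bases before the start. They also hold CATTCC, the reverse complement of the TEAD letters GGAATG, 168 bases before it. None of the 8 motifs lies in the Col6a3 or Col19a1 letters. A match is a description of the sequence and not a bound site.

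Few collagen genes had a peak over an end of the span. The PDGFRα list had peaks over the start of Col3a1, the type III chain of soft tissues, and over the lower-coordinate ends of Col1a1, the main chain of type I collagen, and Col14a1, a FACIT that coats fibres. The CD137 list had peaks over the start of Col6a3, the large chain of type VI collagen, the higher-coordinate end of Col2a1, the cartilage chain, and the 3′ end of Col8a2. In each list 3 of 44 collagen genes (6.82%) had a peak over an end of the span, beside 2.98% of all protein-coding genes in the CD137 list and 2.17% in the PDGFRα list. With counts of 3 these shares are imprecise.

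The Col1a1 peak (chromosome 11, 94932646 to 94938531, mm10, ENSMUSG00000001506, class up5k) is 5885 bp wide, the 6th widest of the 8002 PDGFRα peaks. It begins 3578 bp before the lower end of the span (94936224 to 94953042) and reaches 2307 bp into it. It also overlaps the promoter window of Gm46293, a predicted gene. The CD137 list had no peak in the Col1a1 span, and its 1 peak within 50 kb (94957004 to 94959151, class up5k) lay 3962 bp beyond the other end, nearer to Sgca, a muscle membrane gene. The partner chain gene Col1a2 (chromosome 6, 4505618 to 4541543) had no peak in its span and 1 CD137 peak 8083 bp beyond it, at 4549626 to 4550960.

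The Col3a1 peak (chromosome 1, 45310791 to 45313336, ENSMUSG00000026043, class up5k) is 2545 bp wide and ranks 156th in the PDGFRα list. It runs from 747 bp before the start to 1798 bp into the gene. The CD137 list had no peak in the Col3a1 span. Its 2 peaks in the window lay 41563 bp away (45269080 to 45269975, intergenic) and inside the neighbouring gene Col5a2. At Col14a1 the PDGFRα peak (chromosome 15, 55307528 to 55309702, 2174 bp, ENSMUSG00000022371) begins 116 bp before the lower end of the span. Col14a1 also had 2 further PDGFRα peaks and 2 CD137 peaks inside the gene, so Col14a1 itself had peaks of both lists.

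At Col6a3 the CD137 peak (chromosome 1, 90842341 to 90844477, 2136 bp, ENSMUSG00000048126) extends 476 bp upstream of the start. Col6a3 had 4 CD137 peaks within 50 kb, 2 of them in the span, and no PDGFRα peak. At Col2a1 the CD137 peak (chromosome 15, 98002662 to 98005143, 2481 bp, ENSMUSG00000022483) covers the higher-coordinate end of the span, and a PDGFRα peak lay in an intron (97992535 to 97993538). The CD137 peak at Col19a1 (chromosome 1, 24586124 to 24587685, 1561 bp, ENSMUSG00000026141) overlaps the promoter window but stops 237 bp short of the end of the span. A CD137 peak at Col8a2 (chromosome 4, 126313660 to 126315210) covers the 3′ end of that plus-strand gene. Its centre lies outside the span and its deposited ID, ENSMUSG00000042558, is not the one given to the Col8a2 intron peak, ENSMUSG00000056174.

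The promoter table held windows for 35 members, 38 windows in all. A CD137 peak overlapped 2 of the 38 (5.26%), beside 2.61% of all 32851 windows, and a PDGFRα peak overlapped 1 (2.63%), beside 1.70%. Members without a window are Col1a1, Col2a1, Col4a3, Col5a2, Col9a3, Col12a1, Col14a1, Col22a1 and Col26a1 (their ends are named by coordinate). The deposited classes up5k and down5k do not follow the gene's strand. Of 585 peaks that overlap promoter windows of plus-strand genes only, 56.1% have the class up5k and 4.44% down5k. Of 538 at minus-strand genes only, 18.2% have up5k and 46.3% down5k. The start peaks of the minus-strand genes Col6a3 and Col19a1 are both classed down5k, so positions were read from coordinates here.

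**Figure D1:**
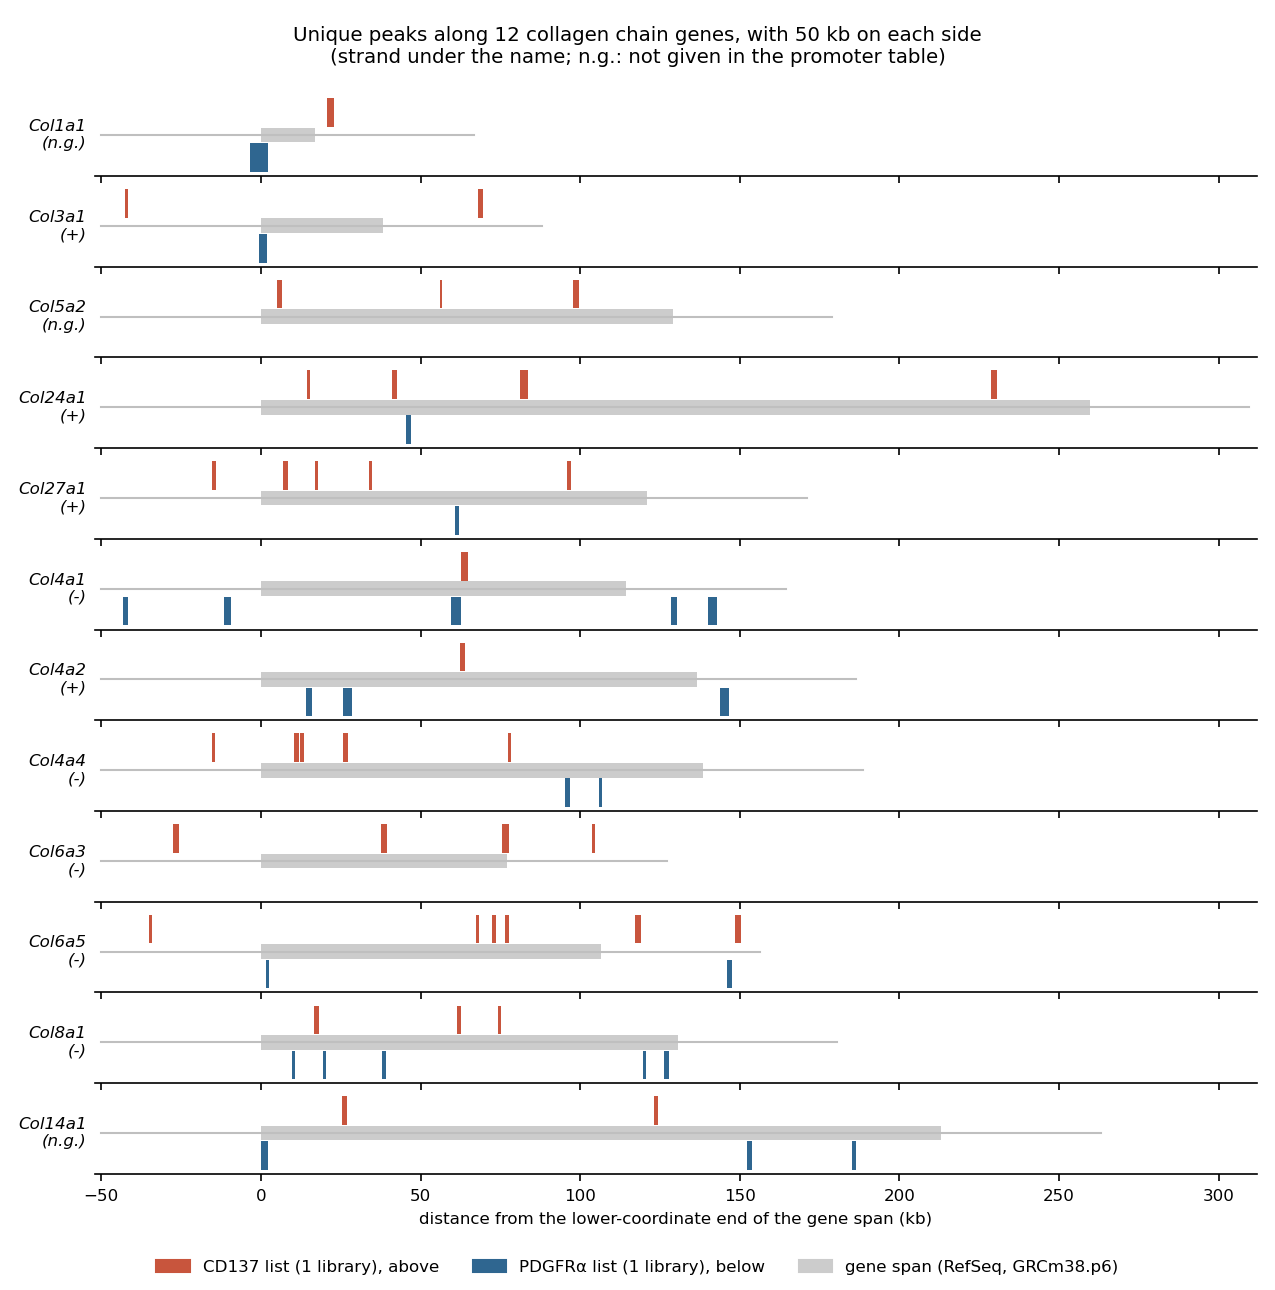
Unique peaks along 12 collagen chain genes, as distance in kb from the lower-coordinate end of the span. CD137 peaks are drawn above and PDGFRα peaks below the grey gene span, with 50 kb on each side. The PDGFRα peaks at the left-hand ends of Col1a1 (5885 bp), Col3a1 and Col14a1 and the CD137 peak at the right-hand end of Col6a3 stand over gene ends, while most other peaks lie inside the genes or beyond them.

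Collagen windows were rich in unique peaks of both lists. Per Mb of merged window there were 8.14 CD137 peaks (exact Poisson interval 6.40 to 10.2) and 6.51 PDGFRα peaks (4.97 to 8.38). The windows of all protein-coding genes held 6.19 and 3.79 per Mb. Set against protein-coding windows outside the collagen genes, the density was 1.32 times as high for CD137 (exact binomial interval 1.04 to 1.65) and 1.72 times for PDGFRα (1.31 to 2.22). Collagen genes are long, with a median of 114 kb against 17.2 kb for all protein-coding genes. Among genes of 100 kb or longer the ratio was 1.61 for PDGFRα (1.16 to 2.18) and 1.20 for CD137, with an interval that includes 1 (0.903 to 1.56).

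By genes, 33 of 44 collagen genes (75%) had a CD137 peak within 50 kb, beside 49.5% of all protein-coding genes, and 36 (81.8%) had a PDGFRα peak, beside 40.4%. Peaks of both lists were found at 27 genes (61.4%, beside 24.8%). A peak centred in the span itself was found at 23 members for CD137 (52.3%, beside 17.3%), at 25 for PDGFRα (56.8%, beside 13.2%) and at 16 for both lists (36.4%, beside 6.41%). Among genes of 100 kb or longer the CD137 count in spans was 19 of 26 (73.1%, beside 69.6%), near the background, and the PDGFRα count was 20 of 26 (76.9%, beside 49.5%). Within 50 kb of genes of that length, 22 of 26 members had a CD137 peak (84.6%, beside 82.0%), which is near the background. In the same length class 24 of 26 had a PDGFRα peak (92.3%, beside 64.5%). Peaks of both lists lay within 50 kb of 20 of these 26 members (76.9%, beside 56.0%). Their spans held peaks of both lists at 15 (57.7%, beside 39.3%). Any peak was found within 50 kb of 42 of the 44 members (95.5%, beside 65.1%), and of all 26 long ones (100%, beside 90.4%). Only CD137 peaks were found at 6 members (13.6%, beside 24.7%): Col1a2, Col5a2, Col6a1, Col6a3, Col20a1 and Col22a1. Only PDGFRα peaks were found at 9 members (20.5%, beside 15.6%): Col4a3, Col4a5, Col5a3, Col9a2, Col10a1, Col11a2, Col13a1, Col17a1 and Col26a1. The peaks counted at Col4a5, Col10a1, Col11a2 and Col20a1 all lay in or nearer to a neighbouring gene. Col7a1, the anchoring fibril chain of skin, and the cartilage FACIT gene Col9a3 had none.

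**Figure D2:**
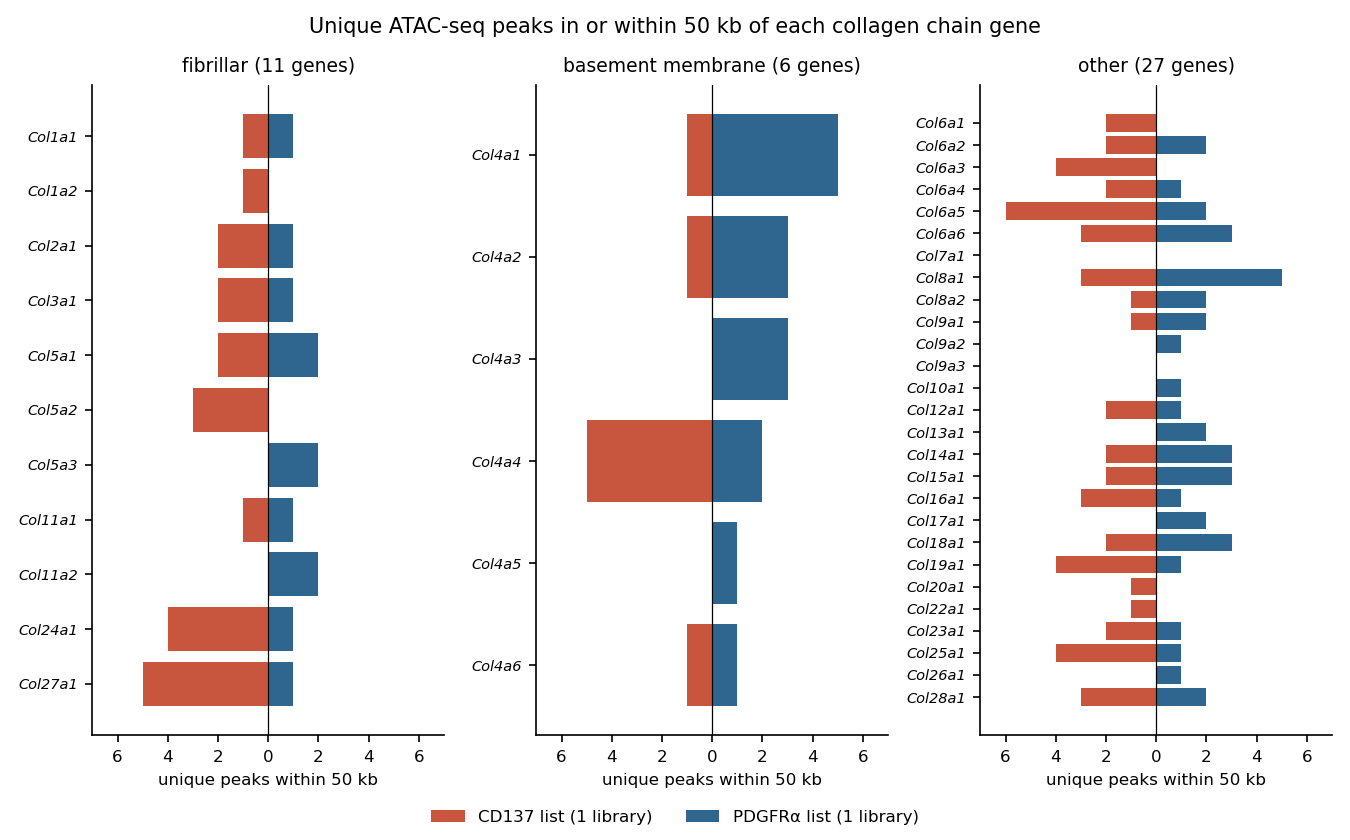
Number of unique peaks in or within 50 kb of each of the 44 collagen genes, CD137 to the left and PDGFRα to the right of 0. Bars reach 6 CD137 peaks at Col6a5 and 5 PDGFRα peaks at Col4a1 and Col8a1, and 11 peaks in the windows of 2 neighbouring collagen genes are counted at both.

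The CD137 share of all collagen peaks was 55.6% (exact binomial interval 46.8 to 64.1%), against 64.5% of all other peaks, a difference of -8.91 percentage points (Newcombe interval -17.4 to -0.772). Against other peaks near protein-coding genes only, of which 62.0% were CD137, the difference was -6.48 points with an interval that includes 0 (-14.9 to 1.66). By class the CD137 share was 62.5% for fibrillar genes (20 CD137 and 12 PDGFRα peaks, 43.7 to 78.9%). It was 44.4% for basement membrane genes (8 and 10 peaks, 21.5 to 69.2%) and 55.3% for the others (47 and 38 peaks, 44.1 to 66.1%). None of the 3 differences between classes could be told from 0 at these counts. Fibrillar minus basement membrane was 18.1 points (-9.77 to 42.7), fibrillar minus other 7.21 points (-12.8 to 25.2) and other minus basement membrane 10.9 points (-13.4 to 33.2). With the wider 50% of each list, other minus basement membrane was 34.5 points, with an interval above 0 (4.25 to 56.1), and fibrillar minus other turned to -6.21 points (-29.7 to 16.3).

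**Figure D3:**
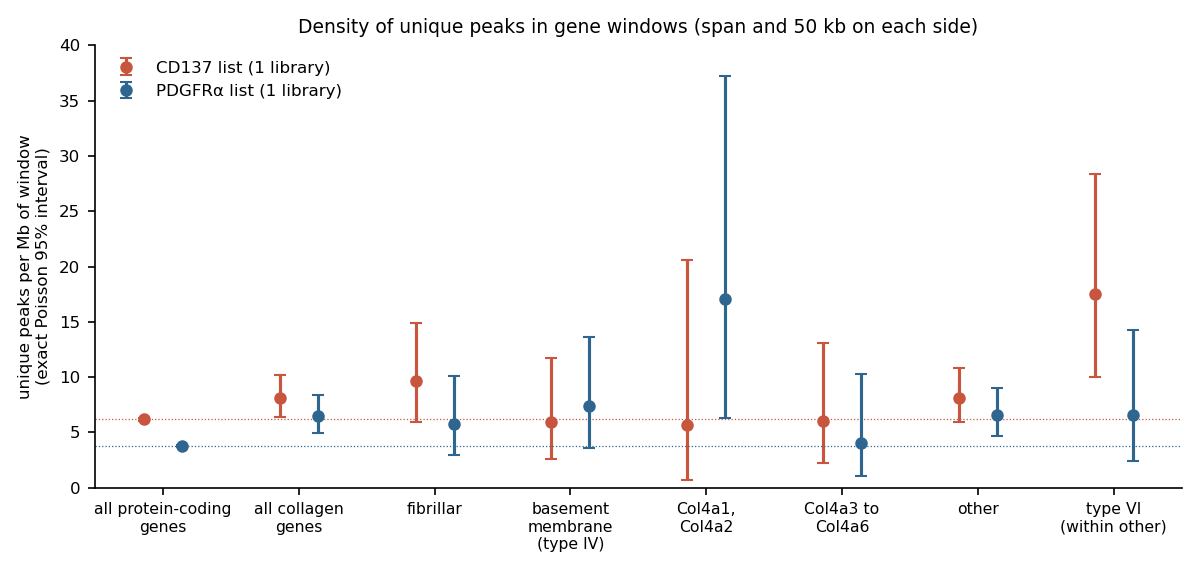
Unique peaks per Mb of gene window for all protein-coding genes and for groups of collagen genes, with exact Poisson 95% intervals. Dotted lines carry the values of all protein-coding genes (6.19 CD137 and 3.79 PDGFRα peaks per Mb) across the plot. The Col4a1 and Col4a2 pair stands high for PDGFRα peaks (17.1 per Mb) and the type VI genes for CD137 peaks (17.5 per Mb).

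Within the fibrillar genes, Col27a1 and Col24a1 had the most CD137 peaks. Col27a1 (chromosome 4, 63214009 to 63334991) had 5 CD137 peaks and 1 PDGFRα peak within 50 kb, and Col24a1 (chromosome 3, 145292472 to 145552013) had 4 and 1. Both encode chains of a separate fibrillar subfamily linked to cartilage and bone. In each gene the span held 4 CD137 peaks and 1 PDGFRα peak. In Col27a1 the CD137 peaks in the span lay at 7.70, 17.4, 34.3 and 96.6 kb from the start, on both sides of the PDGFRα peak at 61.5 kb. In Col24a1 the CD137 peaks lay at 14.8, 41.8, 82.4 and 230 kb, likewise before and after the PDGFRα peak at 46.2 kb.

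The 3 type V genes, whose chains start and limit the width of type I fibres, differed in their lists. Col5a2 (chromosome 1, 45374331 to 45503282) had 3 CD137 peaks, all in the span (45379484 to 45380954 in an exon, and 45430324 to 45431186 and 45472136 to 45473877 in introns), and no PDGFRα peak. Col5a3 (chromosome 9, 20770050 to 20815117) had 2 PDGFRα peaks, both classed as exon (20774681 to 20775514 and 20804085 to 20805248), and no CD137 peak. Col5a1 had 2 of each, with a CD137 peak in an intron (chromosome 2, 27915441 to 27917387) and a CD137 peak of 2930 bp upstream (27846373 to 27849303) between 2 upstream PDGFRα peaks. That upstream peak is the widest CD137 peak near a collagen gene. Of the type XI genes, whose chains are close to type V in structure, Col11a1 had 1 peak of each list. The 2 PDGFRα peaks near Col11a2 lay at the starts of H2-Ke6, Ring1, Rxrb and Slc39a7, neighbours in the gene-dense major histocompatibility region, and not in Col11a2.

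Among basement membrane genes, 6 of the 10 PDGFRα peaks lay within 50 kb of Col4a1 and Col4a2. These encode the chains present in nearly all basement membranes, and they lie head to head on chromosome 8 (11198423 to 11312889 and 11312805 to 11449287). Within 50 kb of the pair there were 6 PDGFRα peaks and 2 CD137 peaks, a CD137 share of 25% (3.19 to 65.1%). The PDGFRα density was 17.1 per Mb (6.28 to 37.2), against 3.79 for all protein-coding genes. In the spans alone it was 11.96 per Mb (2.47 to 34.95), an interval that includes the 3.96 of all protein-coding spans. The pair was picked out within its class, so these densities are a description only. Of the 6 PDGFRα peaks, 5 were 2000 bp or wider. They lay in a Col4a1 intron (11257844 to 11260970, 3126 bp), in Col4a2 introns (11326822 to 11328866, 2044 bp, and 11338447 to 11341365, 2918 bp), beyond Col4a1 (11186697 to 11189106, 2409 bp) and in an intron of the neighbour Rab20 (11456641 to 11459286, 2645 bp). Neither list had a peak over the shared start region of the pair.

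The Col4a1 intron showed open sites of both lists side by side. The CD137 peak at 11261017 to 11263316 (2299 bp) began 47 bp after the PDGFRα peak ended. In all, 1 of 75 collagen CD137 peaks (1.33%) lay within 500 bp of a PDGFRα peak, beside 0.787% of the whole CD137 list. Within 2000 bp there were 4 (5.33%, beside 2.96%), with gaps of 680 bp at Col6a4, 856 bp upstream of Col6a2 and 1497 bp in Col8a1 besides that in Col4a1.

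The tissue-restricted type IV genes Col4a3 to Col4a6, best known from kidney, had 6 CD137 and 4 PDGFRα peaks, a share of 60% (26.2 to 87.8%). The difference from the Col4a1 and Col4a2 pair was 35 points, and its interval includes 0 (-9.57 to 64.3). Col4a4 (chromosome 1, 82448419 to 82587034) accounted for most of these, with 5 CD137 and 2 PDGFRα peaks within 50 kb. Its 4 CD137 peaks in the span (82458904 to 82460203, 82460631 to 82461781, 82474127 to 82475562 and 82525844 to 82526568) lay 60.8 to 127 kb from the start. The 2 PDGFRα peaks (82543776 to 82545301 and 82554173 to 82555337) lay nearer the start, at 42.5 and 32.3 kb. Col4a3, which shares the start region with Col4a4, had 1 PDGFRα peak in its span (82651208 to 82652804, class exon) and no CD137 peak.

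Of the other classes, the type VI genes carried the most CD137 peaks for their length. The 6 genes had 16 CD137 and 6 PDGFRα peaks, a CD137 density of 17.5 per Mb (9.997 to 28.4) and a share of 72.7% (49.8 to 89.3%), an interval that includes the 64.4% of both lists together. Col6a1 and Col6a2, whose chains join that of Col6a3 or another long chain, had no peak in their spans. The 4 peaks in the Col6a2 window, 2 of each list, were all intergenic and upstream of it, and Col6a1 had a CD137 peak 7859 bp beyond its 3′ end (chromosome 10, 76699221 to 76700933) and another inside the neighbour Pcbp3. Col6a4, Col6a5 and Col6a6, which stand in a row on chromosome 9, held 7 CD137 and 4 PDGFRα peaks in their spans. The 3 CD137 peaks in the span of Col6a5 clustered at 29.4, 33.4 and 38.5 kb from the start.

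Col8a1 (chromosome 16, 57624256 to 57754737), whose chain forms networks around vessels, had 8 peaks, all in the span and all in introns. The PDGFRα list gave 5 and the CD137 list 3. The PDGFRα peaks lay at 3.48, 10.5, 91.9, 111 and 120 kb from the start and the CD137 peaks at 55.8, 68.4 and 113 kb, so the first and the last of the 8 were PDGFRα peaks. Col8a2, the partner chain gene, had a PDGFRα peak 1.41 kb after the start (chromosome 4, 126287443 to 126288959) and a CD137 peak over its other end.

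FACIT genes had 14 CD137 and 9 PDGFRα peaks, a share of 60.9% (38.5 to 80.3%). In their spans the counts were 10 and 4. Col19a1 had 3 CD137 peaks and 1 PDGFRα peak in its span, and Col12a1, a chain of tendon and stressed matrix, had 2 CD137 peaks, both classed as exon. In the spans Col14a1 had 2 and 3, Col9a1 1 and 0, Col22a1 1 and 0 and Col16a1 1 and 0. Within 50 kb the counts were 1 and 2 at Col9a1, 3 and 1 at Col16a1 and 2 and 1 at Col12a1. The Col16a1 peak in the span (chromosome 4, 130049683 to 130051813, 2130 bp) lay 2.93 kb after the start.

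The multiplexin genes Col15a1 and Col18a1, whose products sit in basement membrane zones and release endostatin-type fragments, had 4 CD137 and 6 PDGFRα peaks (40%, 12.2 to 73.8%). Each held 1 peak of each list in its span. A wide PDGFRα peak of 2458 bp lay 2026 bp beyond the 3′ end of Col15a1 (chromosome 4, 47315193 to 47317651). The transmembrane collagen genes had 6 of each. Col25a1 and Col23a1 carried 3 and 2 CD137 peaks in their spans with 1 PDGFRα peak each. Col13a1 and Col17a1, whose chains anchor cells to matrix, had 1 PDGFRα peak each in the span and no CD137 peak. Col28a1 had 1 PDGFRα peak in an intron, and beyond its 3′ end it had 3 CD137 peaks and 1 PDGFRα peak, and Col11a1 had 1 PDGFRα peak in an intron. Col4a6 likewise had 1 PDGFRα peak in an intron and 1 CD137 peak in the neighbour Atg4a.

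**Figure D4:**
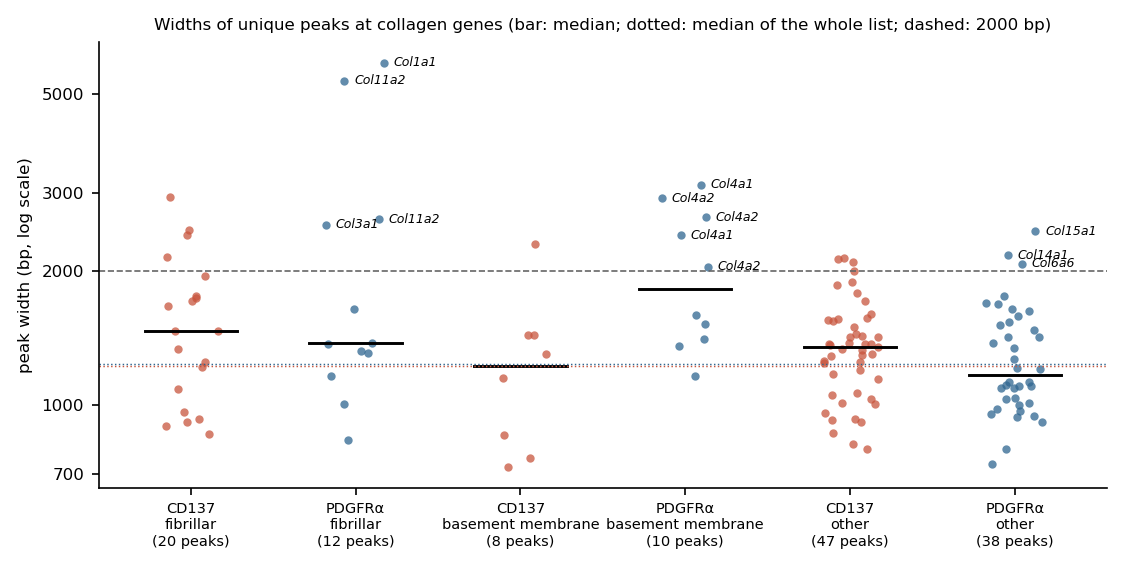
Width in bp, on a log scale, of each collagen peak by class and list, with the median of each group as a bar and whole-list medians dotted. PDGFRα peaks of 2000 bp or wider are named. Of these 12, 9 lie within 50 kb of fibrillar or type IV genes, including peaks in the neighbours H2-Ke6, Rxrb and Rab20.

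Peaks near collagen genes were more often wide than the lists as a whole. Of the PDGFRα collagen peaks 12 of 60 (20%, 10.8 to 32.3%) were 2000 bp or wider, against 5.52% of the whole list and 6.15% of its peaks near protein-coding genes. Of the CD137 collagen peaks 9 of 75 (12%, 5.64 to 21.6%) were, against 4.94% and 5.83%, the second of which lies inside that interval. Median widths were 1363 bp for PDGFRα collagen peaks against 1237 bp in the list, and 1350 bp against 1221 bp for CD137. By class the PDGFRα medians were 1376 bp at fibrillar and 1820 bp at basement membrane genes. At the others, with 38 of the 60 peaks, the median was 1168 bp, below that of the list. By class, 5 of 10 PDGFRα peaks at basement membrane genes (18.7 to 81.3%), 4 of 12 at fibrillar genes (9.92 to 65.1%) and 3 of 38 at the others (1.66 to 21.4%) were this wide, and the differences were not tested. The 5 are all within 50 kb of the Col4a1 and Col4a2 pair, including those in Rab20 and beyond Col4a1, and the peaks at Col4a3 to Col4a6 were narrower. The 4 fibrillar ones are those of Col1a1 and Col3a1 and both near Col11a2, which lie in neighbouring genes. Width depends on how the authors called and joined peaks, and no read number is given to set beside it.

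By deposited class, 48.0% of the CD137 collagen peaks were in introns (36.3 to 59.8%) and 17.3% were intergenic (9.57 to 27.8%), against 31.7% and 45.3% of the list. For PDGFRα, introns held 45% (32.1 to 58.4%) and intergenic space 25% (14.7 to 37.9%), against 33.6% and 38.7%. The centre lay in a collagen span for 83 of the peaks, and inside another protein-coding gene for 12. The window is anchored on genes, so an intron share above that of the list follows in part from the choice of peaks. In genes with a known strand, the 39 CD137 peaks in a span fell 13, 14, 4 and 8 into 4 equal stretches from 5′ to 3′, and the 30 PDGFRα peaks 10, 5, 6 and 9.

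Each of the 8 motifs searched was in at most 13 of 38 collagen promoter windows, so its share is imprecise. Collagen windows were also richer in GC, with a median of 59.8% against 52.7% of all windows, and held a median of 11 CpGs against 7. The glucocorticoid receptor core ACANNNTGT was in 1 of 38 windows (2.63%, beside 6.85% of all windows), that of Col20a1. The AP-1 letters TGACTCA were in 1 (2.63%, beside 5.20%), that of Col6a1, and the TEAD letters GGAATG in 5 (13.2%, beside 14.7%), those of Col3a1, Col4a6, Col6a2, Col18a1 and Col20a1. The EBF letters CCCNNGGG were in 8 (21.1%, beside 13.7%), the RUNX letters TGTGGT in 3 (7.89%, beside 16.8%) and the C/EBP letters TTGCGCAA in none (beside 0.183%). TATAAA was in 5 (13.2%, beside 13.6%) and CCAAT in 13 (34.2%, beside 37.4%). Both strands were searched, and a missing match says only that these letters are not in the window.

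Other genes of the collagen pathway also had peaks of both lists. The list of 66 genes had 81 CD137 and 64 PDGFRα peaks within 50 kb, a share of 55.9% (47.4 to 64.1%). Hydroxylases and folding factors had 21 and 9 peaks (70.0%, 50.6 to 85.3%). P3h2 and P3h1, which hydroxylate prolines at the other carbon, had 5 and 0 and 3 and 0 peaks, and Plod2, which hydroxylates lysines for cross-links, had 4 and 1. Export genes had 6 and 4, with 3 and 1 at Sec24d, a coat protein of transport vesicles, 1 and 0 at Mia3 and 1 and 2 at Preb. Proteins that trim propeptides had 18 and 8 (69.2%, 48.2 to 85.7%). Among them Adamts2, which removes the amino-terminal propeptide of fibrillar chains, had 8 and 1, whereas Bmp1, which removes the carboxy-terminal one, had 1 and 4. Tll1, a relative of Bmp1, and Adamts14 had 3 and 0 each.

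Collagen receptors had the lowest CD137 share of the 7 roles, with 14 CD137 and 22 PDGFRα peaks (38.9%, 23.1 to 56.5%), an interval below the 64.4% of both lists together. Itga1, the alpha subunit of a type IV collagen receptor, had 6 PDGFRα peaks, all in its span, and no CD137 peak, and Itga10 had 3 and 0 in the same order. Without Itga1 the receptor share was 45.2% (27.3 to 63.97%, 14 CD137 and 17 PDGFRα peaks). That interval ends just below the 64.4% of both lists together, but it includes the 62.0% of peaks near all protein-coding genes. Fibril-associated proteins had 13 and 12 peaks, with 4 and 0 at Fmod, 3 and 1 at Thbs2 and 2 and 0 at Postn. Lum, Bgn, Omd, Prelp and Aspn had 0 and 2 each. With Ogn and Tnxb they make 7 of the 12 genes with PDGFRα peaks only, beside 15.6% of all protein-coding genes. However, Ogn, Omd and Aspn are neighbours and can share peaks, as can Lum and its neighbour Dcn, which had 2 peaks of each list. Cross-linking enzymes had 2 and 2, with 0 and 1 at Lox and 2 and 1 at Loxl1, and collagenases 7 and 7, with 2 and 1 at Mmp8, 1 and 0 at Mmp13 and 0 and 1 at Mmp14 and at Ctsk.

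**Figure D5:**
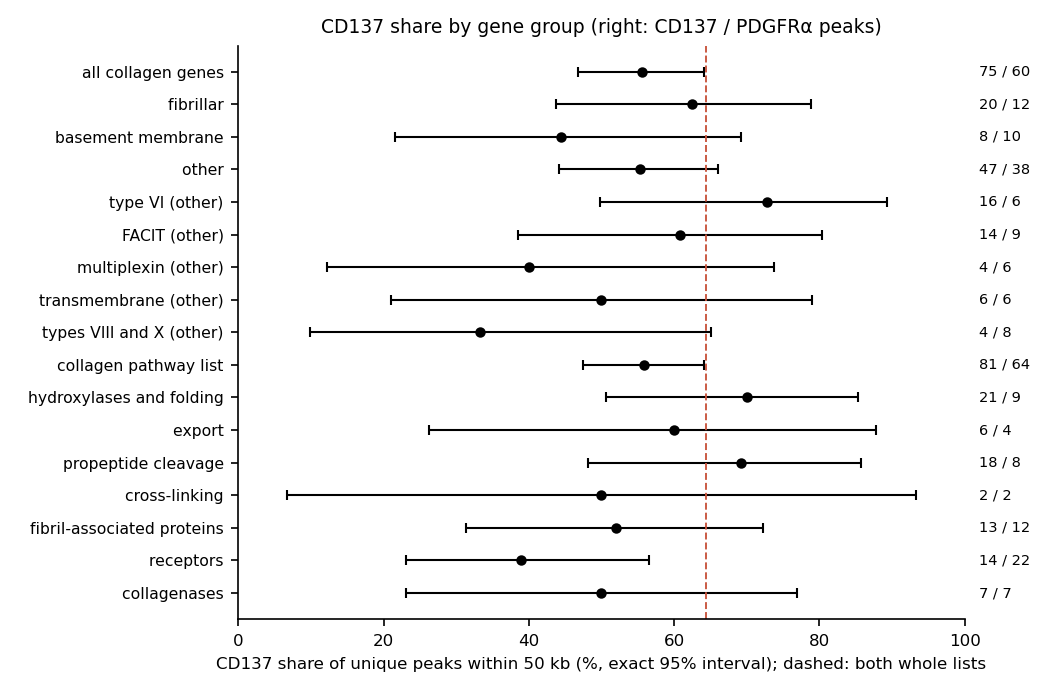
CD137 share of unique peaks within 50 kb for collagen genes, their classes and 7 roles of the pathway list, with exact 95% intervals and the 2 peak numbers at the right. The dashed line is the share over both whole lists (64.4%), and the receptors (38.9%) lie farthest below it among the groups with 20 or more peaks.

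Markers of the cells the sorts could hold had peaks of both lists within 50 kb, where 65.1% of all protein-coding genes had a peak of either list. Adipocyte markers (7 of 7 genes with a peak) had 11 CD137 and 4 PDGFRα peaks, stromal progenitor markers (5 of 6) 8 and 2 and beige markers (4 of 5) 6 and 3. Their CD137 shares were 73.3% (44.9 to 92.2%), 80% (44.4 to 97.5%) and 66.7% (29.9 to 92.5%). Each of these intervals includes the 64.4% of both lists together. Endothelial markers (4 of 5) had 4 and 6, mesothelial markers (4 of 4) 2 and 7, smooth muscle and pericyte markers (4 of 4) 3 and 5 and immune markers (3 of 4) 2 and 1. Pecam1, Pdgfrb, Tbx1 and Cd3e had no peak, and Wt1 had 0 CD137 and 5 PDGFRα peaks. Tnfrsf9, the gene of CD137, had 1 of each, and Pdgfra had 1 CD137 peak and no PDGFRα peak. As at Col4a1 and Col4a2, PDGFRα peaks outnumbered CD137 peaks in total at the endothelial, mesothelial and smooth muscle and pericyte markers. Tek (3 CD137 and 0 PDGFRα peaks), Cspg4 (2 and 0) and Msln (1 and 0) went the other way. The endothelial share was 40% (12.2 to 73.8%) and the smooth muscle and pericyte share 37.5% (8.52 to 75.5%). Both intervals include the 64.4% of both lists together. The mesothelial interval lies below it, but Wt1 alone gave 5 of the 7 PDGFRα peaks there. Whether such cells had a part in the collagen counts was not tested.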

How the data were processed

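The authors deposited 1 list of unique ATAC-seq peaks per library, whose start and end are other values than counts: positions in bp beside Ensembl IDs and place classes, per the file headers. The submitters' processing notes name CASAVA 1.8 and mm10. Which aligner and peak caller were used, how unique peaks were defined, whether reads were shifted for transposase binding and whether starts count from 0 or 1 were not given in the sources used here. Peaks were assigned to collagen genes by their centre, with spans of a RefSeq table (GRCm38.p6). A peak in several windows was counted once in totals. Shares and ratios carry exact binomial, densities exact Poisson and differences Newcombe 95% intervals. With 1 library per group no test was run. Members, classes, motifs and pathway lists were chosen with earlier results of these data known. Text names all members with 3 or more peaks, a peak in the span or a peak at an end, Col1a1, Col1a2, Col3a1, Col4a1, Col4a2, Col6a1, Col6a2 and Col6a3 whatever their counts, and up to 2 genes per pathway role with the largest difference, with ties. Alternatives covered windows of 0, 5 and 100 kb, wider peaks, lists of equal length, overlap in place of centres, nearest genes, linked Ensembl IDs and class membership. The steps were tested on simulated data. Scripts ran under Python 3.11.15 with scipy 1.17.1, pandas 2.3.3 and numpy 2.4.6, and plots were drawn with matplotlib 3.10.9.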

Additional observations from a re-analysis of the deposited data

How the results depend on the processing

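No paired analysis was possible because each population has a single library, and no library was left out in turn. The settings without the Col4a1 and Col4a2 pair or without Itga1, the difference from all other peaks and the density ratios were chosen after seeing the data. The CD137 share of collagen peaks stayed within its interval in 12 of 13 settings and was 45.9% with lists of equal length, where 50.03% of all other peaks were CD137. The difference from all other peaks was -7.72 points within 100 kb, and its interval came to include 0 in the gene span (-6.60 points), within 5 kb (-6.97), with the wider 50% of each list (-6.18) and with lists of equal length (-4.08). Density fell with fewer peaks by construction, for CD137 to 5.32 per Mb with the wider 50% and 5.54 with equal lists, and for PDGFRα to 3.798 with the wider 50%. The density ratio for PDGFRα ran from 1.61 to 1.95 with intervals above 1. For CD137 its interval included 1 with genes of 100 kb or longer (1.20) and with the spans of those genes (1.31), and it was 1.37 to 1.65 in the other settings. Without the Col4a1 and Col4a2 pair the basement membrane share was 60%, and with the wider 50% other minus basement membrane was 34.5 points (4.25 to 56.1). The difference fibrillar minus other was -6.21 points with the wider 50%. Class shares stayed within their intervals in the settings run. Depth is unknown and limits every count.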

Other observations

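Some collagen peaks overlap promoter windows of predicted genes. The share of all peaks that do so was not computed, so no excess at collagen genes is claimed. Besides Gm46293 under the wide PDGFRα peak of Col1a1, the CD137 peak in the Col4a1 intron overlaps the promoter window of Gm32709, the PDGFRα peak of 2918 bp in Col4a2 that of Gm46030 and the PDGFRα peak of 2409 bp beyond Col4a1 that of Gm15418.

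Linking the deposited Ensembl IDs to members gave 32 genes with 84 peaks and a CD137 share of 57.1% (45.9 to 67.9%). The ID linked to Col16a1, ENSMUSG00000085517, rests on 1 peak classed down5k, 2.93 kb after the start of this plus-strand gene.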
